A study of Homo sapiens and Mus musculus with 24 samples.

Results

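This section describes the places in mouse fetal liver where hemogen and the chromatin remodeller BRG1 were found together without any peak of acetylated histone H3 lysine 27 (H3K27ac). A BRG1 region was a stretch of merged peaks holding a peak from each of the 2 wild-type (WT) BRG1 libraries, and a hemogen region was made the same way from the 2 hemogen libraries. Of 13213 WT BRG1 regions, 12763 overlapped a hemogen region by at least 1 bp. The regions described were selected on measured values, the peak calls of these WT lists. Of the 12763, 1249 (9.79%) overlapped no peak in any of the 3 WT H3K27ac lists and are called unacetylated regions below, a name that refers to peak calls and not to a measured absence of the mark. Another 8223 overlapped an H3K27ac region present in both H3K27ac libraries and are called acetylated regions. The remaining 3291 overlapped an H3K27ac peak but no such replicated region. The number depended on the BRG1 lists. With WT BRG1 library 1 or 2 left out, a BRG1 peak in the other library was enough, and 3258 or 4440 regions remained.

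The samples were fetal livers at embryonic day 14.5, in 2 genotypes, WT and hemogen knockout (KO). Chromatin immunoprecipitation libraries, 2 per group, were made from WT livers with antibodies against HA (titled hemogen), H3K27ac and BRG1, and from KO livers with the BRG1 antibody; 2 inputs of each genotype came without peak lists, and 12 samples of the human line K562 were not analysed here. How WT livers came to carry an HA epitope is not stated, strain and the number of animals per library are not given, and no untagged control for the HA antibody was analysed here. The labels name no separate animals, so the spread between libraries may be technical. The tissue label was not checked against marker genes and no gene is assigned to any region, since no mouse annotation was used.

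Hemogen is found in the nucleus of haematopoietic cells and is best known as a regulator in the erythroid lineage. BRG1, encoded by Smarca4, is an ATPase of the BAF (SWI/SNF) complexes, which slide and evict nucleosomes and open enhancers and promoters. H3K27ac sits on nucleosomes that flank active enhancers and promoters, while the factor-bound DNA between such nucleosomes is often depleted of histones. A narrow peak of a histone mark can therefore stop short of the bound site.

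The lists behind the calls differed in depth. The WT BRG1 libraries held 26330 and 21167 peaks, the hemogen libraries 53063 and 42871, and the KO BRG1 libraries 3209 and 5602. The H3K27ac lists held 69883 and 45548 peaks for the libraries and 167030 for the group list, which made the exclusion strict: with the library lists alone, 2286 regions had no H3K27ac peak. The authors' fold and p-values allow the number of fragments at a summit to be read back, if the peak caller's usual formula is assumed. The relative depth of a library rests on a further assumption about its background, given with the processing below. Set to 1 for WT BRG1 library 1, the depth was 1.04 in WT library 2 and 0.404 and 0.341 in KO libraries 1 and 2.

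BRG1 at the unacetylated regions was of moderate strength in WT liver. The authors' fold enrichment, a ratio to local background, had a median of 4.26 in library 1 (quartiles 3.63 and 5.03) and 4.35 in library 2 (3.78 and 4.99). At acetylated regions the medians were 4.82 and 4.62, so the distributions overlapped broadly. The recovered summit height had a median of 24 fragments in each WT BRG1 library, against 32 and 32 at acetylated regions. Strength ranks a region's best peak by −log10 p among all peaks of its list, as a percentile averaged over both libraries. It had a median of 47.5, against 71.6 at acetylated regions. Only 16 of the 1249 fell in the strongest decile of all hemogen-BRG1 regions and 230 in the weakest. The regions were also narrow, with a median width of 430 bp against 1002 bp. These lists chose the regions, so the values are descriptions and no test was made.

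Hemogen showed the opposite order in fold and strength, while its recovered summit heights were close. Its median fold at the unacetylated regions was 6.47 in library 1 (quartiles 5.21 and 8.17) and 6.25 in library 2 (4.94 and 7.73), against 5.87 and 5.37 at acetylated regions. The recovered hemogen summit height had medians of 32 and 41 fragments in libraries 1 and 2, against 31 and 39 at acetylated regions. The median hemogen strength was 90.6 against 86.7. Averaged over deciles of equal BRG1 strength, the medians stood at 92.4 and 84.3, and the unacetylated regions had the higher median in 10 of 10 deciles. Hemogen fold exceeded BRG1 fold at 90.0% of the unacetylated regions in library 1 and 85.5% in library 2. At acetylated regions those shares were 70.8% and 66.7%. Fold depends on the depth and background of its own list, so these shares do not compare the occupancy of the proteins. Libraries were matched here by number only. These hemogen values are those of the strongest peak in the whole hemogen region, which at 606 of the 1249 (48.5%) also held a BRG1 region with an H3K27ac peak. At the other 643, the median hemogen fold was 6.10 in library 1 and 6.04 in library 2. Another measure, added once results had been seen, counted only hemogen peaks with their summit inside the BRG1 region. Of the unacetylated regions 761 (60.9%) and 799 (64.0%) had such a peak, with median folds of 6.25 and 6.09. At the wider acetylated regions 6714 (81.6%) and 7003 (85.2%) had one, with medians of 5.66 and 5.09. The share with such a peak was thus lower at the unacetylated regions, and these medians cover only regions that had one. The order of the medians was the same by each of these measures in both libraries, and the quartiles overlapped.

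**Figure D1:**
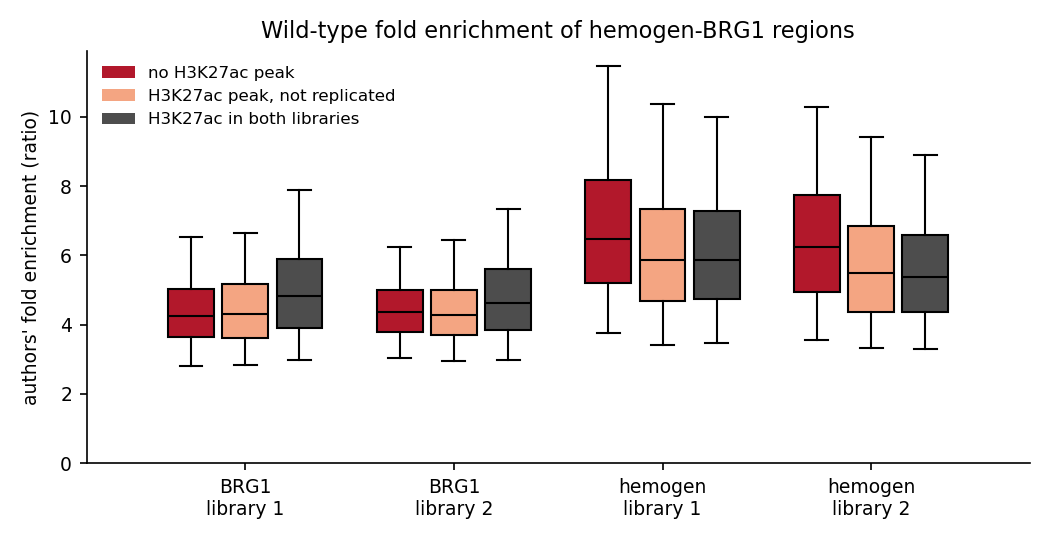
Authors' fold enrichment (ratio to local background) of WT BRG1 and hemogen in each library, for hemogen-BRG1 regions with no H3K27ac peak (1249), with an unreplicated peak (3291) and with H3K27ac in both libraries (8223); boxes give quartiles and median, whiskers the 5th and 95th percentiles of regions. In both libraries the regions without H3K27ac lie below the regions with replicated H3K27ac for BRG1 (medians 4.26 and 4.35) and above both other classes for hemogen (6.47 and 6.25).

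The summits of both proteins lay close together at part of the regions. Hemogen libraries are numbered here by the samples to which the lists belong, while peak names within those lists carry the numbers 3 and 4, and a shared number does not pair a hemogen with a BRG1 library. From the strongest BRG1 summit to the nearest hemogen summit of the same library number, the median distance was 174 bp in library 1 and 130 bp in library 2. It was within 100 bp at 491 of 1249 regions (39.3%) in library 1 and 537 (43.0%) in library 2. At acetylated regions the medians were 205 and 178 bp, and 30.9% and 33.8% lay within 100 bp. The upper quartiles had the opposite order, 554 and 476 bp at unacetylated and 447 and 387.5 bp at acetylated regions. The BRG1 summits of the 2 WT libraries were a median of 69 bp apart, against 133 bp at the wider acetylated regions. Several BRG1 regions could share a hemogen region. The 1249 lay on 1174 hemogen regions, with up to 4 on a single one, and 141 shared theirs with another unacetylated region. The hemogen region often reached further than BRG1: at 829 (66.4%) it overlapped an H3K27ac peak that the BRG1 region did not touch.

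The 8 strongest unacetylated regions show how BRG1 and hemogen were measured there. Coordinates were converted to 1-based from the deposited lists, whose contig names fit the mouse build mm10. The strongest lay at chr15:9074600-9075718. Its BRG1 fold was 8.74 and 8.07 in WT libraries 1 and 2, with 52 and 54 fragments at the summit, and its hemogen fold 10.8 and 11.4. The nearest H3K27ac peak began 588 bp away, and this was the only one of the 8 with a BRG1 peak in a KO list, at a fold of 5.65 in KO library 2.

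The next lay at chr4:87805997-87806916, with BRG1 folds of 8.95 and 10.2 and hemogen folds of 14.3 and 11.2. No H3K27ac peak lay within 2399 bp of it, and the nearest replicated H3K27ac region was 39505 bp off. At chr11:86742580-86743005 BRG1 folds were 8.61 and 6.36 with 47 and 51 fragments, and hemogen folds 13.7 and 9.77 with 67 and 91 fragments. The nearest H3K27ac peak there was 1192 bp away. These were the 2 of the 8 with the greatest distance from any H3K27ac peak.

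The other regions of the 8 sat nearer to acetylated chromatin. At chr5:50126229-50127320 BRG1 folds were 9.66 and 7.54 and hemogen folds 16.9 and 10.1, with an H3K27ac peak 179 bp away. At chr14:70712484-70713380 they were 6.92 and 7.61 for BRG1 and 10.0 and 11.6 for hemogen, with a peak 295 bp away. At chr14:45653533-45654267 they were 8.56 and 7.36, and 13.5 and 11.6. Hemogen fold exceeded BRG1 fold in each library at all 3 of these places. The pattern did not hold at chr19:21273503-21275145, where BRG1 folds were 9.28 and 7.41 and hemogen folds 5.39 and 8.93, and where the summits lay 858 and 1173 bp apart. The last of the 8, at chr17:50425104-50425868, had BRG1 folds of 7.86 and 7.52 and hemogen folds of 9.05 and 12.3.

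The strongest hemogen did not mark the strongest BRG1. At chr18:62165445-62165928, the unacetylated region with the highest hemogen strength (percentile 99.98), hemogen folds were 13.4 and 12.4 but BRG1 folds 3.67 and 2.95. At chr15:103259215-103259648 hemogen folds were 12.9 and 10.9 and BRG1 folds 4.84 and 5.38. In both, the summits were more than 600 bp apart in library 1, at 687 and 769 bp. The other 3 of the 5 highest lay side by side on chromosome 11, from 86741759 to 86743906, and shared a single hemogen region, so their hemogen values are 1 measurement. Their BRG1 strength percentiles were 12.5, 98.3 and 41.5.

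Most unacetylated regions lay next to H3K27ac peaks, not far from them. The nearest H3K27ac peak of any list was a median of 370 bp away (quartiles 182 and 770 bp), and at 1027 of the 1249 (82.2%) it was within 1000 bp. At 392 (31.4%) there was a peak within 1000 bp on each side. Only 17 lay more than 10000 bp from any peak. An H3K27ac region present in both libraries was within 1000 bp at 535 (42.8%), with a median distance of 1470 bp. For comparison, 4844 hemogen regions overlapped neither a BRG1 peak nor an H3K27ac peak of any list. Their median distance to an H3K27ac peak was 1873 bp, with 37.6% within 1000 bp and 8.44% flanked on each side. The 4844 had to miss H3K27ac over the whole hemogen region, the 1249 only over the BRG1 region. Defined like the 4844 were 496 hemogen regions without H3K27ac that did hold a BRG1 region. They lay between these sets, with a median of 461 bp, 72.8% within 1000 bp and 22.4% flanked on each side. An acetylated hemogen-BRG1 region was itself within 1000 bp of 495 unacetylated ones (39.6%).

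**Figure D2:**
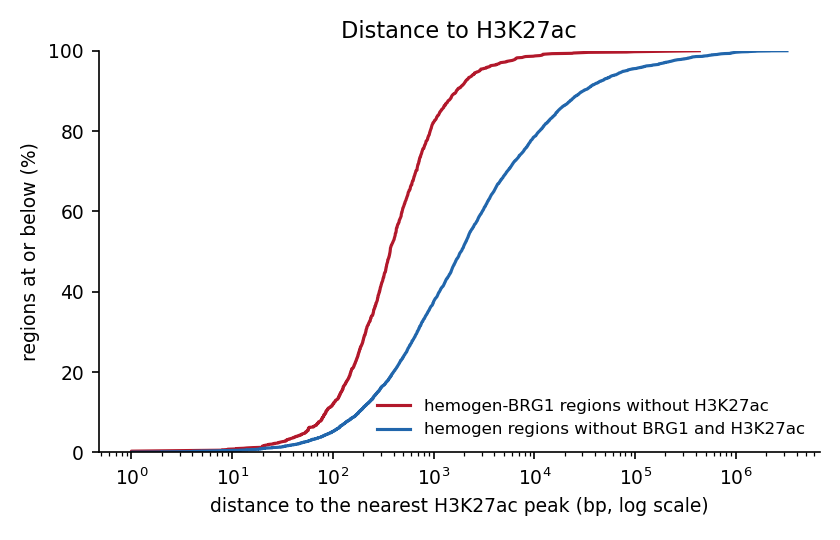
Cumulative share of regions (%) by distance to the nearest H3K27ac peak of any list (bp, log scale; regions that touch a peak are drawn at 1 bp), for the 1249 unacetylated hemogen-BRG1 regions and the 4844 hemogen regions with neither BRG1 nor H3K27ac. The curve of the regions with BRG1 lies to the left, with medians of 370 and 1873 bp. The sets are defined unlike: the 1249 miss H3K27ac over the BRG1 region only, the 4844 over the whole hemogen region.

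Seen from the BRG1 summit of WT library 1, the H3K27ac group list covered 0% of the unacetylated regions at the summit, as the rule requires, 18.1% at 500 bp to the left and 19.2% to the right, and 28.7% and 27.2% at 1000 bp. Coverage fell again to 17.8% and 16.0% at 3000 bp. Unacetylated regions thus sat in a dip with flanks of H3K27ac; the dip follows from the rule, the height of the flanks does not. The acetylated regions had 90.6% coverage at the summit and 41.3% and 42.0% at 1000 bp. Regions with an unreplicated H3K27ac peak had 67.9% at the summit and 30.3% and 30.7% at 1000 bp. Coverage at that distance was thus not particular to the unacetylated regions.

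The edge of the rule was a matter of few bases. The 3 unacetylated regions nearest to the mark, at chr7:81004174-81004660, chr9:78190770-78191689 and chr3:125270694-125271448, were 0, 0 and 1 bp from an H3K27ac peak. Just outside the rule were regions at chr6:57746707-57747157, chr18:75038685-75039010 and chr15:55556941-55557294, with overlaps of 1, 2 and 3 bp. The H3K27ac peaks that excluded these 3 were each in 1 list, with authors' folds of 3.02, 2.71 and 4.82. At the other end, the 3 regions farthest from any H3K27ac peak were chr10:97312965-97313289 (433633 bp), chr1:144775221-144775543 (346324 bp) and chr1:76911421-76911738 (169632 bp). BRG1 folds in libraries 1 and 2 were 4.23 and 3.45 at the first and 3.97 and 4.10 at the second, with strength percentiles of 29.5 and 14.6. At the third they were 5.54 and 7.35 with a percentile of 78.2, above the upper quartile of the unacetylated regions (64.8). None of the 3 had a KO peak.

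Without hemogen, BRG1 was seldom called at the unacetylated regions. Of 1249, 104 (8.33%) overlapped a BRG1 peak in any of the 3 KO lists, where 56.1% of all hemogen-BRG1 regions did. KO library 1 held 15 (1.20%, background 18.9%), KO library 2 held 32 (2.56%, background 29.5%), both libraries held 4 (0.320%, background 12.4%) and the longer KO group list held 94 (7.53%, background 54.5%). The KO libraries had no part in choosing the regions. At acetylated regions the shares were 71.5% in any list, 26.7% in KO library 1 and 40.4% in KO library 2. A region that was not called is not thereby free of BRG1.

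The difference was present at like BRG1 strength. Within deciles of WT BRG1 strength, the called share of the unacetylated regions was lower than that of the acetylated ones by a weighted mean of −50.4 percentage points for any list, −13.7 points in KO library 1, −24.3 in KO library 2 and −49.4 in the KO group list. Both KO libraries gave the same direction. In the weakest decile 5.65% of 230 unacetylated and 37.1% of 560 acetylated regions were called, and in the strongest 12.5% of 16 and 96.3% of 1174. With region width held as well, the difference was −40.6 points. Counting only KO peaks within 100 bp of the BRG1 summit, an alternative added once results had been seen, gave 7.45% and 58.3%, and −39.2 points. Regions of 1 library share their source, so no p-value over regions was computed. The range over alternatives that count a call in both KO libraries reached −7.52 points.

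**Figure D3:**
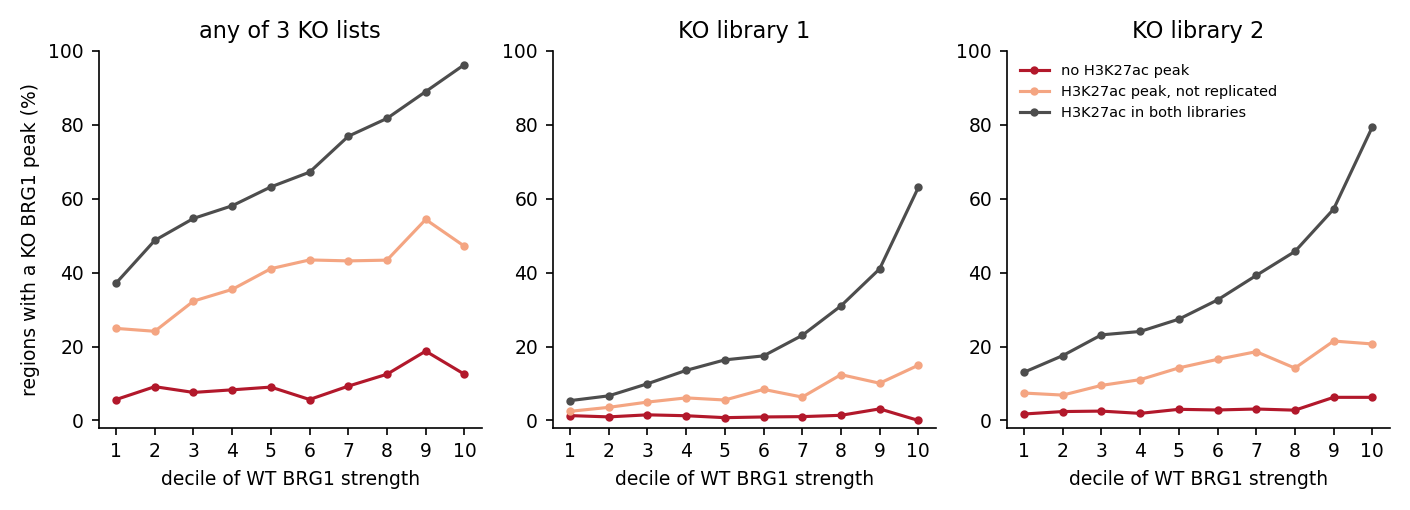
Share of hemogen-BRG1 regions (%) that overlap a BRG1 peak of any KO list (left) or of a single KO library (middle, right), by decile of WT BRG1 strength (1 weakest), for regions with no, unreplicated and replicated H3K27ac. The line of regions without H3K27ac stays below the others in each panel, between 5.65% and 18.8% in the left one; the strongest decile holds only 16 such regions.

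The called share followed how widely H3K27ac was called. It was 8.33% with no H3K27ac peak, 21.3% of 1037 regions with a peak in the H3K27ac group list only, 40.8% of 2092 with a peak in a single library, and 71.5% with a replicated region. The order was the same in each KO library, at 1.20%, 2.41%, 7.27% and 26.7% in library 1 and 2.56%, 6.56%, 14.1% and 40.4% in library 2. BRG1 strength was not held in this series. Within the unacetylated regions the share had no steady order with distance to H3K27ac. The share called in any KO list was 12.8% of 148 regions within 100 bp of a peak, 8.50% of 200 from 100 to 200 bp, 5.48% of 310 from 200 to 400 bp, 8.97% of 368 from 400 to 1000 bp and 8.07% of 223 from 1000 bp on. The nearest class was also above the farthest in KO library 1 (2.70% and 0.897%) and in the KO group list (12.8% and 6.28%). In KO library 2 the nearest class had 2.03% and the farthest 2.69%, so the order was not kept in every list.

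The KO libraries were shallower than the WT libraries. Scaled to the recovered depth of KO library 1, the WT summit heights of the unacetylated regions had a median of 9.34 fragments, and scaled to KO library 2, 7.88. The 5th percentile of the heights of peaks called in those lists was 19 and 16 fragments. Only 3 unacetylated regions reached those heights after scaling, of which 0 were called in KO library 1 and 2 in KO library 2. The acetylated regions were also below those heights in the main, with medians of 12.7 and 10.7 fragments. Of them, 26.7% and 40.4% were called in KO libraries 1 and 2. The KO peaks that were called at them had medians of 31 and 27 fragments, and those at unacetylated regions 22 and 22. Only called peaks have a KO height, so these medians cannot be set against the scaled WT heights of all regions. More acetylated regions were called than the 507 and 508 whose scaled WT height reached those values. Heights were not scaled to the KO group list, which held 94 of the 104 unacetylated regions called in any KO list. The part of depth in the missing calls at unacetylated regions was not tested.

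A WT list of the same length as a KO list offers a reference that does not rest on these formulas; it matches list length, not depth, and it too was added once results had been seen. Peaks of WT BRG1 library 1 that lay on hemogen and on no H3K27ac peak numbered 4440. Of these, 0.631% overlapped a peak of KO library 1, and 5.38% overlapped the 3205 strongest peaks of WT library 2. For KO library 2 the shares were 1.71% and 10.6%, with 5592 peaks each. Taking the 3258 such peaks of WT library 2 instead, KO library 1 held 0.767% and an equal list of WT library 1 held 12.6%. KO library 2 held 1.81% of them, against 21.9%. The KO share was thus between 0.0607 and 0.162 of the WT share for unacetylated peaks in the 4 pairs. For acetylated peaks it was between 0.662 and 0.814, higher in each of the 4. At like peak strength the gap between unacetylated and acetylated peaks was −9.88 to −22.9 points in the KO lists and −7.17 to −16.0 points in the WT lists, and larger in the KO list in 4 of 4 pairs.

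**Figure D4:**
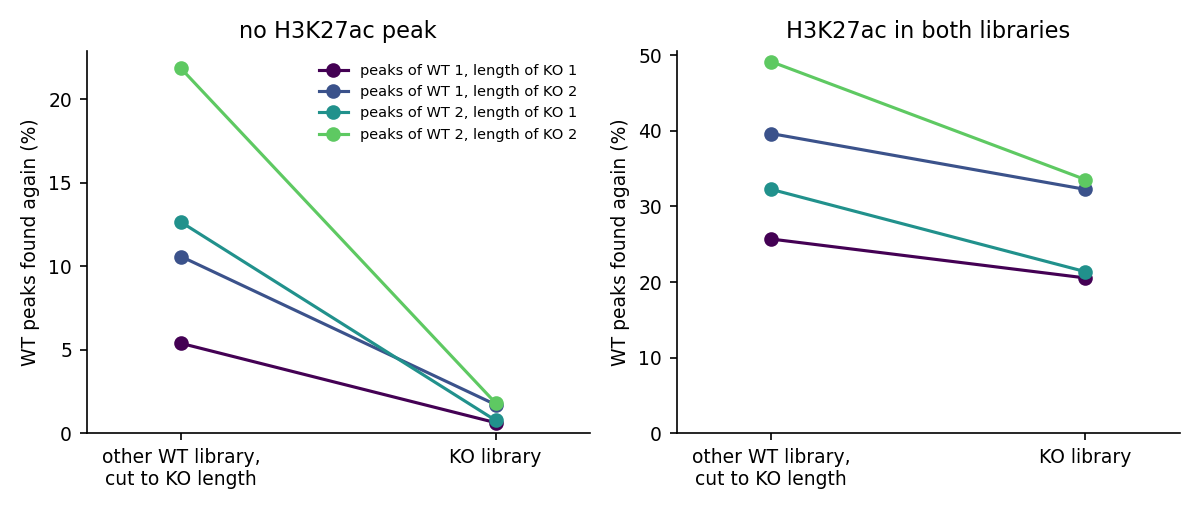
Share (%) of WT BRG1 peaks on hemogen that were found again in the other WT library cut to the length of a KO list, and in that KO list, for peaks with no H3K27ac peak (left) and with replicated H3K27ac (right); each line is a pair of a WT and a KO library. Without H3K27ac the share falls from between 5.38% and 21.9% to between 0.631% and 1.81%, and with H3K27ac from between 25.7% and 49.2% to between 20.5% and 33.6%.

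The makeup of the BRG1 lists was compared by library, with hemogen regions that overlap no H3K27ac peak defined without use of BRG1. Among the 3205 strongest peaks of each library, 39 (1.22%) and 41 (1.28%) lay in such regions in WT libraries 1 and 2, and 24 (0.749%) and 30 (0.936%) in KO libraries 1 and 2. Both KO values lay below both WT values. The WT mean was 1.25% ± 0.0441 and the KO mean 0.842% ± 0.132 (SD, n = 2 each). An exact permutation test over libraries, two-sided, gave p = 0.33, the smallest value that 2 against 2 can reach. The difference of −0.406 points became −1.10 without KO library 1, when the longer lists of 5592 peaks were used, and −0.232 with p = 1 in the same exact permutation test at a minimum −log10 q of 5. In the opposite view, 1520 of the 1543 BRG1 regions found in both KO libraries overlapped hemogen, and 8 of those (0.526%) had no H3K27ac peak, where 9.79% of the WT regions had none. All 8 also lay in a WT BRG1 list, and 3 on the unacetylated regions. The KO lists were shorter, so these last shares are not matched.

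Around the unacetylated regions, KO BRG1 peaks were more frequent 1000 bp to either side than at the summit. The KO group list covered 4.96% of them at the WT BRG1 summit, and 8.17% and 7.53% at 1000 bp to the left and right. At acetylated regions it covered 45.1% at the summit and 8.79% and 8.99% at 1000 bp. The flanking positions are also where H3K27ac was most often called around the unacetylated regions.

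**Figure D5:**
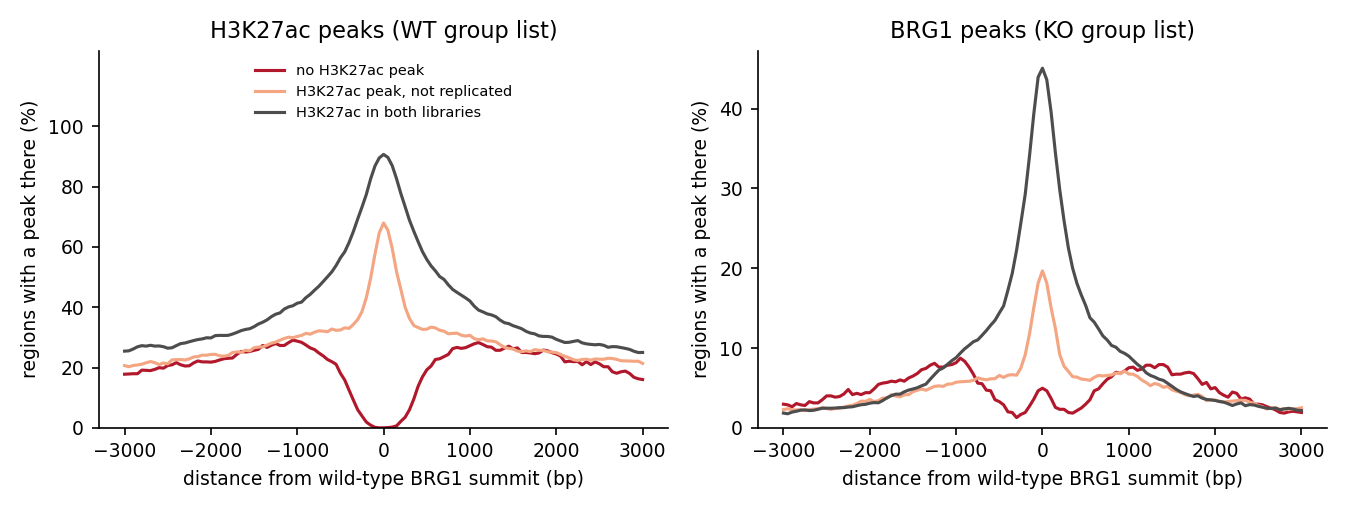
Share of regions (%) covered by an H3K27ac peak of the WT group list (left) and by a BRG1 peak of the KO group list (right), by distance in bp from the WT BRG1 summit of library 1, for the 3 classes of hemogen-BRG1 regions. Regions without H3K27ac show a central dip in H3K27ac, 0% at the summit by the rule, and a KO BRG1 curve that is higher at 1000 bp (8.17% and 7.53%) than at the summit (4.96%).

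The 104 unacetylated regions with a KO call were set beside the other 1145 in what was measured in WT. Their median BRG1 strength was 51.5 against 47.3, their median hemogen strength 86.1 against 91.0, their width 501 bp against 426 bp, and their distance to H3K27ac 390.5 bp against 369 bp; the quartiles of each overlapped. By quintile of hemogen strength, from weakest to strongest, 12.9%, 10.0%, 5.20%, 5.20% and 8.40% were called. Where a KO peak was present, its fold ranged from 4.29 to 6.68 in KO library 1 (15 regions) and from 3.79 to 8.14 in KO library 2 (32 regions). Those values lay within the range of KO peaks at acetylated regions, 2.40 to 10.2 and 2.39 to 10.5.

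Only 4 unacetylated regions had a BRG1 peak in both KO libraries. At chr12:3618482-3619049 the BRG1 fold was 5.01 and 3.77 in WT libraries 1 and 2 and 5.39 and 4.38 in KO libraries 1 and 2. At chr8:123318201-123318869 it was 6.01 and 3.50 in WT and 5.79 and 5.20 in the KO. In both places the KO values lay within or close to the WT range. At chr6:121245015-121246134 the folds were 2.83 and 4.94 in WT and 4.45 and 5.28 in the KO, and at chrX:37084550-37084935 they were 3.81 and 3.71, and 5.32 and 4.21. Fold depends on the depth and background of its own list, so these values do not show equal occupancy. The nearest replicated H3K27ac region was 41884 to 60508 bp from these 4, while the nearest H3K27ac peak of any list was 73, 299, 691 and 45 bp away.

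The strongest 5 in no KO list were the second to the sixth of the 8 regions given above, at chr4:87805997-87806916, chr11:86742580-86743005, chr5:50126229-50127320, chr14:70712484-70713380 and chr14:45653533-45654267. Their WT BRG1 strength percentiles were 98.9, 98.3, 97.9, 97.5 and 97.5. They had 40 to 47 fragments at the summit in WT library 1 and 39 to 51 in WT library 2. These counts, which were not scaled to KO depth, were above the medians of acetylated regions. None of the 5 had a peak in any of the 3 KO lists. The 5th percentile of called peak heights was 19 fragments in KO library 1 and 16 in KO library 2. After scaling, only 3 of 1245 unacetylated regions with a recovered height reached those values. The part of depth in the missing calls at these 5 regions was not tested.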

How the data were processed

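Peaks of chromatin immunoprecipitation libraries from WT and hemogen KO fetal liver were analysed. The submitters' processing notes list MACS2 2.2.7.1, Picard 2.21.4, Bowtie2 2.3.5 and SAMtools 1.9 without saying what each did. Build, filters, controls and how group lists were made: not given in the sources used here. The authors deposited 8 library and 4 group peak lists without a header. The deposited lists give a fold (a ratio to local background), −log10 p and −log10 q for each peak, and the authors' summit position. Sequences other than chromosomes 1 to 19 and X were left out. Overlap meant 1 bp.

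Strata were 10 groups of equal size of WT BRG1 strength over all hemogen-BRG1 regions, weighted as Mantel-Haenszel. Summit heights were read from the authors' fold and −log10 p, assuming a Poisson upper tail for p and a pseudocount of 1 in the fold. All heights of a list were then whole multiples of a common factor, within 0.01, for 100% of the peaks checked in each list, and 89.1% to 96.9% of peaks had a single reading. Relative depth was the lowest recurring background of a list, divided by its shortest peak width and by its common factor. That this ratio follows depth was assumed. Functions were tested on simulated data, with 0 mismatches in overlaps, merging and distances. The regions named follow a rule: the 8 strongest, the 5 strongest in both KO libraries and in no KO list, the 5 with most hemogen, and 3 nearest to, just outside and farthest from H3K27ac. The regions, comparisons and alternatives were chosen with earlier results of these data known. Motifs, promoters and genes were planned but need a mouse genome or annotation not used here, so no sequence is shown. Scripts ran under SciPy 1.17.1, pandas 2.3.3 and NumPy 2.4.6 in Python 3.11.15, with figures by Matplotlib 3.10.9.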

Additional observations from a re-analysis of the deposited data

How the results depend on the processing

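The number of unacetylated regions was 397 at a minimum −log10 q of 5 and 2286 with only the H3K27ac library lists excluding. It was 10006 on WT group lists and 223 at 1000 bp or more from any H3K27ac peak. With 1 library left out it ran from 1254 to 4440, and a left-out BRG1 or hemogen library no longer had to hold a peak. The share called in the KO became 3.78% at a −log10 q of 5, 14.2% with the H3K27ac library lists, 3.45% on WT group lists and 0.320% where both KO libraries had to call it. It ran from 1.20% to 8.52% with 1 library left out. Here and for the difference below, leaving out a KO library also dropped the KO group list, so only the other KO library counted. The difference from acetylated regions kept its sign in 23 of 23 alternatives. It was −30.6 points at a −log10 q of 5, −28.5 on group lists, −7.52 for a call in both KO libraries, −63.1 with no strata, −63.4 with strata of hemogen strength, −40.6 with width added, −42.0 against all regions with an H3K27ac peak and −39.2 for summit calls, and −50.4 to −13.7 with 1 library left out. Asking for more KO libraries makes calls rarer by construction, and for the remaining shifts the cause was not tested. The difference in makeup of the BRG1 lists ran from −4.39 to −0.232 points over 10 alternatives, −1.10 to −0.374 with 1 library left out. A replicate block on the library number used peaks of single WT libraries, each scored in 1 KO library, in place of the regions. Its gap in KO call at like peak strength was −16.4 points, against −16.1 over all 4 pairs. This value is counted among the 23 alternatives. With the block, the makeup difference was −0.406 points, with p = 0.5 by exact sign changes, the smallest that 2 pairs allow. The libraries share only a number: over 1584 regions called in both KO libraries, the fold of library 1 over 2 correlated at 0.013 between WT and KO. Motif, base composition and start-site alternatives were not run.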

Other observations

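The share of hemogen-BRG1 regions without H3K27ac varied between chromosomes. It was lowest on chromosome 11 (73 of 1140, 6.40%) and chromosome 4 (59 of 865, 6.82%), and highest on chromosome X (26 of 140, 18.6%), chromosome 13 (91 of 586, 15.5%) and chromosome 3 (93 of 624, 14.9%). On chromosome X, 38.6% of hemogen-BRG1 regions were acetylated in both libraries, against 71.1% on chromosome 11. These shares were not tested.

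The unacetylated regions were mostly scattered. The median distance to the nearest other one was 196946 bp, while 292 had another within 10000 bp. The longest run with gaps of at most 10000 bp held 5 unacetylated regions, on chromosome 17 from 40806064 to 40813284, and 0 of the 5 was called in any KO list.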
